A study of Harpegnathos saltator with 36 samples.

Results

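The brain and the ovary of gamergates of the ponerine ant Harpegnathos saltator were compared by RNA sequencing. A gamergate is a worker that won a dueling contest after the queen was removed and then lays eggs, so each ant carried a working ovary. The comparison rests on the 8 libraries that the labels name as gamergate brain or gamergate ovary, out of 36 libraries in the series. There were 4 brain libraries and 4 ovary libraries, each from one ant 6 months old, and no transgene, drug or mutation was involved. The gamergates arose among workers that the study placed in a queenless colony to induce this change of caste. The brain was the central brain without the optic lobes, and the ovary was taken whole. Brain and ovary libraries of workers and revertants of the same age, 4 per tissue and caste, were used only to ask whether the difference between the tissues was particular to gamergates. Workers, the nonreproductive caste, came from the same colony as the gamergates, whereas revertants, former gamergates that lost their fertility after isolation and transfer into a colony with mature reproductives, came from a separate colony. Which brain and ovary came from the same ant is not given by the labels.

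Reproduction in insects links these organs by hormones. Neurosecretory cells of the brain release insulin-like peptides, which act through insulin receptors on the ovary and on the fat body, and the fat body makes yolk proteins that the oocyte takes up through its vitellogenin receptor. The insect ovary is also a gland: its follicle cells make ecdysteroids, and its nurse cells load the oocyte with mRNA, ribosomes and other stores for the embryo.

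Total reads per library ranged from 1660576 to 1799316 in gamergate brains and from 5354569 to 23882325 in gamergate ovaries, so the depths did not overlap. With every library thinned to 1660576 reads, 3587 genes were higher in the brain and 3692 in the ovary at the threshold used below. A count of 3 reads in a library was worth 1.63 to 1.76 CPM (reads scaled to the effective size of the library) in a brain library and 0.128 to 0.535 CPM in an ovary library. All brain libraries were run on lane 6 and all ovary libraries on lane 5, so tissue and lane cannot be told apart. In bulk tissue, fewer cells of a type and less mRNA per cell cannot be told apart either. Correlations of log2 CPM over 9370 genes were 0.967 to 0.974 between brain libraries and 0.979 to 0.989 between ovary libraries, but 0.327 to 0.397 between a brain and an ovary library. These correlations are across genes, which are not independent replicates.

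Most genes differed between the tissues. Of 9370 genes tested by edgeR's quasi-likelihood test, 3698 (39.5%) had more abundant mRNA in the brain and 4246 (45.3%) in the ovary at a Benjamini-Hochberg adjusted p under 0.05, together 84.8% of genes. These are called differentially expressed genes (DEGs) below, and the shares are the background against which each gene list is read. With at least a 2-fold difference as well, 2585 (27.6%) were higher in the brain and 2700 (28.8%) in the ovary. At an 8-fold difference or more, 1150 genes (12.3%) were higher in the brain and 709 (7.57%) in the ovary. Among all genes tested, 37.5% had every brain library above every ovary library and 43.1% had the reverse. The median log2 difference, brain minus ovary, was −0.13 over all genes tested, and upper-quartile scaling in place of TMM moved it by 0.22. Under that scaling the median was 0.09, and more genes were higher in the brain (4146) than in the ovary (3718). Which tissue had more DEGs thus depends on the scaling.

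Insulin signaling was the subject of the study, so its ligands and receptors come first. Ins, the insulin of this ant, had 35.3, 48.7, 39.1 and 32.4 CPM in the 4 gamergate brains, against 1.83, 1.25, 2.00 and 2.06 CPM in the 4 gamergate ovaries. The ranges lay far apart, and the log2 difference was 4.38 ± 0.21 (SE, adjusted p = 1.98e-09). IGF, an insulin-like growth factor, had the reverse pattern, with 2.84, 3.52, 1.63 and 0 CPM in brains and 342, 306, 288 and 266 CPM in ovaries. Its log2 difference was −7.23 ± 0.27 (adjusted p = 1.6e-10), and only 14 reads stood behind its brain level. The 2 insulin-like ligands thus lay on opposite sides, Ins higher in every brain library and IGF in every ovary library. For this and every other gene without overlap, the exact two-sided permutation test gave p = 0.0286, the smallest value that 4 libraries against 4 allow.

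ALS and Imp-L2 encode secreted proteins that bind insulin-like peptides in Drosophila. ALS had 7.96, 8.21, 7.59 and 5.20 CPM in brains, against 152, 154, 105 and 74.0 CPM in ovaries (log2 difference −4.06 ± 0.29, adjusted p = 7.25e-08). Imp-L2 had 20.5, 24.04, 27.1 and 21.98 CPM in brains, against 61.0, 43.5, 49.7 and 45.2 CPM in ovaries. Its difference was smaller, −1.09 ± 0.15 on the log2 scale (adjusted p = 2.2e-05), but its ranges did not overlap. The study's oligonucleotides for the 3 ligand and binding protein genes on the ovary side, forward (F) and reverse (R), are shown 5′ to 3′ because they define the transcripts it measured by other methods: primer pairs for ALS and Imp-L2 and a pair for the in situ hybridization (ISH) probe of IGF. No letter in them is set apart.
ALS F primer: aaactccgtcttgaaggtactg
ALS R primer: gctcagatacaatcgtctgagg
Imp-L2 F primer: gggtaacaatgacctgcctatg
Imp-L2 R primer: tcgacactgacacgcaatatc
IGF ISH F probe: gagaagcaggatgaatcg
IGF ISH R probe: aaatagagctccaatgtttttc

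Both insulin receptors were higher in the brain. InR1 had 230, 227, 213 and 202 CPM in brains, against 122, 88.5, 130 and 109 CPM in ovaries (log2 difference 0.95 ± 0.11, adjusted p = 6.76e-06). InR2 had 187, 164, 168 and 154 CPM in brains, against 102, 60.3, 85.3 and 71.4 CPM in ovaries (1.07 ± 0.14, adjusted p = 2.13e-05). The receptors thus differed by about 1 log2 unit and the ligands by 4 or more.

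**Figure D1:**
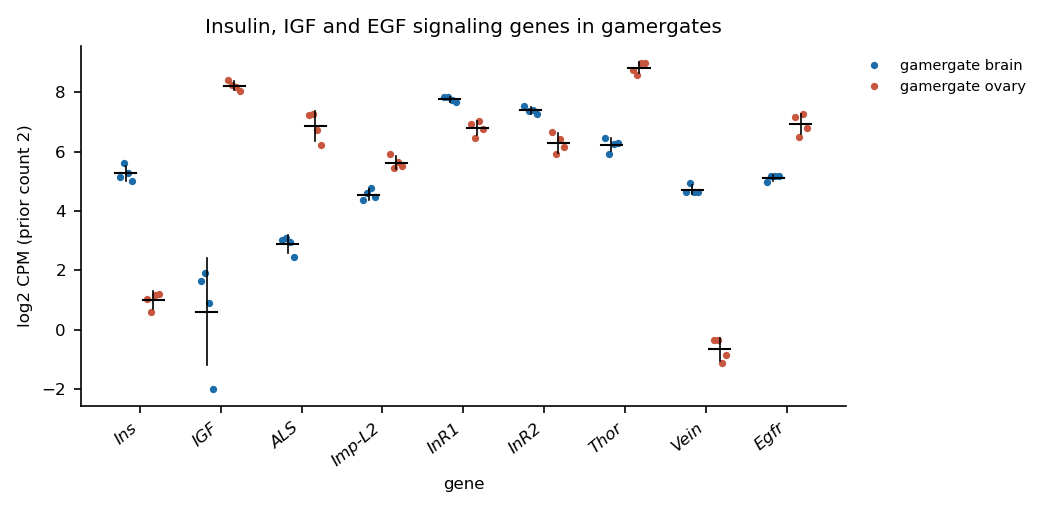
Levels of 9 signaling genes in gamergates, as log2 CPM on the vertical axis. Each point is one library, with the 4 brain libraries left of the 4 ovary libraries, the horizontal line is the mean and the vertical line is 1 SD. Ins and Vein lie higher in the brain, IGF, ALS, Imp-L2, Thor and Egfr lie higher in the ovary, and InR1 and InR2 lie higher in the brain by about 1 log2 unit.

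Over the whole insulin and IGF list, 7 of 28 members tested were higher in the brain, 14 were higher in the ovary and 7 were not DEGs. The shares on the brain and ovary side were 25% and 50%, against 39.5% and 45.3% of all genes. The median log2 difference of the list was −0.30, against −0.13 over all genes. Among the members on the ovary side, Thor, the 4E-BP inhibitor of translation that FOXO and TOR control in Drosophila, had 88.1, 61.0, 75.9 and 78.1 CPM in brains, against 431, 388, 512 and 506 CPM in ovaries (−2.60 ± 0.13, adjusted p = 2.54e-09). The kinase gene Akt (−1.09 ± 0.08, adjusted p = 5.15e-08) and foxo (−0.83 ± 0.15, adjusted p = 0.000193) were also higher in the ovary, as was a gene for an insulin-degrading enzyme (LOC105189706, −5.53 ± 0.31). The TORC2 subunit gene Sin1 was higher in the brain (1.86 ± 0.12). The kinase gene Tor was at 0.16 log2 units and not a DEG, but was higher in the brain under upper-quartile scaling (0.39, adjusted p = 0.0023), in DESeq2, with thinned libraries and without ovary replicate 3 (0.29, adjusted p = 0.00955).

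In the EGF receptor and MAPK list, 11 of 19 members tested were higher in the brain and 4 in the ovary, with a median of 0.60 log2 units. The shares were 57.9% and 21.1%, against 39.5% and 45.3% of all genes. Ligand and receptor lay on opposite sides. Vein, a secreted EGF ligand, had 24.5, 30.5, 25.0 and 24.9 CPM in brains, against 0.541, 0.535, 0.213 and 0.305 CPM in ovaries (log2 difference 6.12 ± 0.29, adjusted p = 1.44e-09). Egfr, its receptor, had 31.3, 36.3, 35.8 and 35.9 CPM in brains, against 142, 90.5, 152 and 112 CPM in ovaries (−1.84 ± 0.17, adjusted p = 5.71e-07). Among feedback inhibitors of this pathway, aos, a secreted antagonist of the receptor, was higher in the brain by 3.08 ± 0.18. Mkp3, a MAPK phosphatase, was higher in the brain by 3.58 ± 0.12. Between receptor and nucleus, the kinase genes Raf, Dsor1 and rl were higher in the brain by 1.56, 1.57 and 1.00 log2 units, whereas the scaffold genes ksr and dos were higher in the ovary (−0.75 and −0.94 log2 units).

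The lists of neuronal function were nearly one-sided, toward the brain. All 27 voltage-gated channel genes tested were higher in the brain, with a median of 5.40 log2 units. In the synaptic vesicle release list 23 of 25 were higher in the brain, in the transmitter receptor list 37 of 41, in the neuropeptide receptor list 8 of 9, and in the adhesion and guidance list 21 of 23. Rdl, a GABA-gated chloride channel subunit, had 656, 621, 542 and 618 CPM in brains, against 0, 0, 0.171 and 0.229 CPM in ovaries, a total of 7 reads. Cadps, a factor for the release of dense-core vesicles, had 1877, 1800, 1649 and 1752 CPM in brains, against 1.89, 0, 0.810 and 1.22 CPM in ovaries (10.63 ± 0.35, adjusted p = 6.61e-11). VGlut, the vesicular glutamate transporter, had 79.0, 82.7, 84.1 and 64.8 CPM in brains and no read in any ovary library. Against the floor of detection, set at 3 reads over the 4 libraries of a tissue, it was at least 1476-fold higher in the brain. The potassium channel Shab (9.81 ± 0.13), the dopamine receptor Dop2R (10.85 ± 0.25) and the choline transporter ChT (11.14 ± 0.13) were of the same kind, with ovary levels below 1 CPM.

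A few members of these lists were not higher in the brain. Syb (−0.77 ± 0.09), which codes for a synaptobrevin, a SNARE protein of vesicle fusion, and an SV2-like gene (LOC105181288, −0.74 ± 0.23) were higher in the ovary, the SV2-like gene no longer under upper-quartile scaling or in a fit of all 24 brain and ovary libraries (adjusted p = 0.0572 and 0.205). So were 2 receptor subunits, Lcch3 (−2.02 ± 0.30), a GABA receptor gene, and nAChRbeta1 (−0.74 ± 0.19), an acetylcholine receptor gene, and one adhesion gene, Nrg (−1.06 ± 0.12), which codes for neuroglian. In the fit of all 24 libraries nAChRbeta1 was no longer called (−0.86, adjusted p = 0.0676). The 4 that were not DEGs were Grd, a GABA receptor subunit homolog (−1.21 ± 0.59, adjusted p = 0.0727), a kainate receptor gene (LOC105191208, −0.18 ± 0.23), SIFR, the receptor for SIFamide (0.52 ± 0.28), and PlexB, a plexin receptor for semaphorins (0.16 ± 0.13). Under upper-quartile scaling SIFR and PlexB were higher in the brain (adjusted p = 0.0289 and 0.0137), as was PlexB with thinned libraries and without ovary replicate 3 (adjusted p = 0.0082 and 0.0174). Grd was higher in the ovary in limma-voom and without brain replicate 3 (adjusted p = 0.0438 and 0.0398). Of the 10 neuropeptide receptor genes 9 passed the filter on low counts. Without this filter 1 of the 10 was higher in the ovary, as with a mean of at least 1 CPM or without brain replicate 1 or 2.

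Of the genes for making and moving transmitters, 14 of 18 were higher in the brain (77.8%, against 39.5% of all genes). On the other side, 2 were higher in the ovary (11.1%, against 45.3%). Hdc, histidine decarboxylase, which makes histamine, had 50.6, 43.4, 29.8 and 46.8 CPM in brains, against 155, 123, 82.4 and 87.7 CPM in ovaries (−1.39 ± 0.22, adjusted p = 9.03e-05). The gene ple, tyrosine hydroxylase, the first enzyme of dopamine synthesis and also used for tanning, had 16.5, 21.7, 17.9 and 6.36 CPM in brains, against 217, 80.3, 120 and 266 CPM in ovaries (−3.45 ± 0.42, adjusted p = 8.81e-06). Vmat, the transporter that packs amines into vesicles, averaged 216 CPM in brains and 0.855 CPM in ovaries and was higher in the brain by 7.81 log2 units.

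Neuropeptide precursors showed the same split. Of 22 in the list, 18 passed the filter on low counts, 14 of these were higher in the brain, and 3 were higher in the ovary. The shares were 77.8% and 16.7%, against 39.5% and 45.3% of all genes. The gene spab, coding for an ITG-like peptide, averaged 594 CPM in brains and 0.0954 CPM in ovaries. SIFa had 18.2, 14.7, 17.9 and 15.04 CPM in brains and no read in the ovary, at least 313-fold higher over the same floor. Orcokinin (LOC105186564) and allatostatin C (LOC105182736) had 247 and 279 reads over the 4 brains and 1 read each over the 4 ovaries. Their ratios of 2000 (exact 95% counting interval 356 to 79294) and 2259 (402 to 89526) cover counting error only. On the other side, the precursor named Dsk in the reference, drosulfakinin in Drosophila, had 1.71, 5.86, 7.59 and 9.83 CPM in brains, against 263, 219, 265 and 255 CPM in ovaries (−5.32 ± 0.23, adjusted p = 6.47e-10). Dh44, diuretic hormone 44 (−1.30 ± 0.23), and ITP, ion transport peptide (−1.47 ± 0.22), were higher in the ovary as well. Crz, corazonin, had 3.98, 12.9, 1.63 and 12.1 CPM in brains, against 0.406, 0, 0.171 and 0.0762 CPM in ovaries. It did not pass the filter on low counts and so was not tested across genes.

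The labelled tissues were checked against markers of other cells. Among glial markers, 9 of 14 were higher in the brain (64.3%, against 39.5% of all genes) and 4 in the ovary (28.6%, against 45.3%). Their summed levels were 2967 to 3337 CPM in brains and 823 to 977 CPM in ovaries. The glial transcription factor gene repo had 167, 159, 177 and 154 CPM in brains, against 0.608, 1.25, 0.682 and 0.610 CPM in ovaries (7.83 ± 0.16, adjusted p = 1.57e-12). Although the optic lobes had been removed, photoreceptor markers were present in the brain libraries. Of 12 tested, 10 were higher in the brain (83.3%) and 2 in the ovary (16.7%). The whole list summed to 798 to 1598 CPM in brains, against 266 to 339 CPM in ovaries. One library differed from the others in this: Arr2, a visual arrestin, had 444, 375, 32.01 and 404 CPM in the 4 brains, against 0.744, 0.892, 1.54 and 1.30 CPM in the ovaries. The opsin Lop2 followed, with 199, 184, 42.9 and 154 CPM in brains, against 3.04, 3.57, 3.37 and 4.04 CPM in ovaries. Of 26 muscle markers tested, 18 were higher in the brain (69.2%) and 5 in the ovary (19.2%). The whole muscle list summed to 2351 to 4900 CPM in brains and 1170 to 1573 CPM in ovaries. The same brain library, replicate 3, had the most: Mhc, muscle myosin heavy chain, had 258, 254, 567 and 243 CPM in brains, against 49.5, 56.2, 48.4 and 54.9 CPM in ovaries. Of 7 hemocyte markers tested, 4 were higher in the brain (57.1%) and 1 in the ovary (14.3%). The latter was Col4a1 (−3.89 ± 0.21), a collagen IV chain of basement membranes. With a log2 difference of at least 1 required as well, 2 were left on the brain side, and Col4a1 stayed on the ovary side. Hemocyte markers summed to 313 to 371 CPM in brains and 386 to 464 CPM in ovaries. The part of these cells in the differences of other genes was not tested.

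Yolk and lipid carrier genes were far higher in the brain libraries than in the ovary. Vg, the yolk precursor vitellogenin, had 33622, 16108, 20460 and 63510 CPM in brains, against 2580, 1175, 669 and 1586 CPM in ovaries (log2 difference 4.48 ± 0.52, adjusted p = 5.87e-06). Brain replicate 4 had about 4 times the level of replicate 2, and every brain lay above every ovary. The apolipophorin precursor gene apolpp, coding for the main lipid carrier of the blood, had 17557, 16256, 19024 and 22879 CPM in brains, against 340, 187, 134 and 287 CPM in ovaries (6.32 ± 0.33, adjusted p = 3.18e-09). Both are products of the fat body, and 5 of 7 fat body markers tested were higher in the brain (71.4%, against 39.5% of all genes). The whole list summed to 33156 to 88559 CPM in brains and 1275 to 3799 CPM in ovaries. The part of fat body tissue in the brain libraries was not tested. Apoltp, a lipid transfer particle gene of the same list, was higher in the ovary (−1.10 ± 0.20, adjusted p = 0.000298).

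The receptor for this yolk showed the opposite pattern. The vitellogenin receptor gene yl had 11.9, 22.9, 12.5 and 14.46 CPM in brains, against 1481, 1452, 1629 and 1423 CPM in ovaries (−6.60 ± 0.18, adjusted p = 1.48e-11). Of 8 eggshell, follicle and yolk uptake genes tested, 7 were higher in the ovary and 1, Fas3, in the brain (0.92 ± 0.16). The vitelline membrane gene fs(1)N (−7.49 ± 0.26), the follicle cell factor gene tj (−3.79 ± 0.31) and Cad99C (−3.17) were among them. Genes of late eggshell formation varied between ovaries. The chorion gene yellow-g had 0 CPM in each brain library and 10.1, 121, 0.171 and 331 CPM in the 4 ovaries, and yellow-g2 had none in brains and 0.879, 143, 0.171 and 14.6 CPM in ovaries. Neither passed the filter on low counts. The eggshell protease gene ndl had 32.98, 32.2, 54.2 and 35.9 CPM in brains, against 790, 660, 53.1 and 34.5 CPM in ovaries. Its difference (−3.30 ± 0.92, adjusted p = 0.00534) rested on ovary replicates 1 and 2, the libraries of the tissues overlapped, and limma-voom did not call it (−2.16, adjusted p = 0.226).

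Germline genes were found on both sides. Of 26 germline and piRNA genes, 15 were higher in the ovary (57.7%, against 45.3% of all genes), 7 in the brain (26.9%, against 39.5%) and 4 were not DEGs. Genes for the localization and control of maternal mRNA led the ovary side. The gene exu had 9.10, 9.97, 7.59 and 15.6 CPM in brains, against 2004, 1456, 1941 and 1699 CPM in ovaries (−7.39 ± 0.21, adjusted p = 1.77e-11). The gene nanos had 1.71, 0, 1.63 and 0 CPM in brains, against 153, 147, 171 and 147 CPM in ovaries (−7.48 ± 0.30, adjusted p = 3.72e-10). The translational regulators orb (−4.68 ± 0.23) and BicC (−4.39 ± 0.17) were similar, and the germline helicase gene vas was higher in the ovary too (−2.69 ± 0.10) but stood at 95.5 to 115 CPM in brains. The 7 on the brain side were spir, an actin nucleator (2.20 ± 0.07), the gene for gustavus (LOC105181574, 1.20 ± 0.09), BicD, a dynein adaptor (1.07 ± 0.09), pum, a translational repressor also known from neurons (1.01 ± 0.10), and by less than 0.5 log2 units the piRNA factors armi, a piwi-like gene (LOC105184384) and Hen1. The piwi-like gene and Hen1 were no longer called in the fit of all 24 libraries (adjusted p = 0.12 and 0.0521).

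Cell division genes were mostly higher in the ovary. In the DNA replication list 37 of 47 members were higher in the ovary and 7 in the brain, with a median of −1.21. The shares were 78.7% and 14.9%, against 45.3% and 39.5% of all genes. In the mitosis and cell cycle list 40 of 52 were higher in the ovary (76.9%) and 5 in the brain (9.62%), with a median of −1.68. Mcm7, a subunit of the replicative helicase, had 25.6, 23.5, 15.2 and 31.8 CPM in brains, against 202, 219, 210 and 210 CPM in ovaries (−3.13 ± 0.15, adjusted p = 1.88e-09). Mcm2 (−3.08 ± 0.12), Mcm3 (−2.81 ± 0.16) and Orc3 (−3.26 ± 0.15), also of origin licensing, were higher in the ovary too, as were aurB, the Aurora B kinase of mitosis (−5.04 ± 0.21), and Cks30A (−4.63 ± 0.27). A gene named condensin complex subunit 2 (LOC105189004) and the M-phase inducer phosphatase (LOC105189068) differed by −7.004 ± 0.20 and −5.27 ± 0.17.

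Some replication genes lay on the brain side. The gene named DNA ligase 1 (LOC105187850) had 334, 355, 327 and 322 CPM in brains, against 27.2, 24.4, 32.8 and 29.4 CPM in ovaries (3.54 ± 0.10, adjusted p = 1.69e-11). The other 6 were those named MCM9 (LOC105191900, 2.30 ± 0.16), DNApol-alpha180 (1.18 ± 0.08), MCM8 (LOC105187287, 0.81 ± 0.11), Orc1 (0.74 ± 0.10), Gnf1 (0.53 ± 0.08) and RpA-70 (0.29 ± 0.07). RpA-70 was not called without the filter on low counts (0.15, adjusted p = 0.089) or in the fit of all 24 libraries (0.18, adjusted p = 0.25). In the mitosis list the 5 were the genes named PLK1 (LOC105186763, 2.44 ± 0.16), centromere protein F (LOC105185020, 2.17 ± 0.09), KIF23 (LOC105186118, 1.30 ± 0.13), cnn (0.77 ± 0.09) and Det (0.72 ± 0.17). In the meiosis and recombination list 10 of 19 were higher in the ovary and 6 in the brain. With these shares, 52.6% and 31.6% against 45.3% and 39.5% of all genes, the list was mixed. In it hdm, a meiotic recombination gene, had no read in the brain and 9.46, 9.81, 8.74 and 8.46 CPM in ovaries, at least 21.0-fold lower in the brain against 3 reads over the 4 brain libraries. The 6 on the brain side were Fancd2 (2.42 ± 0.10), mus81 (1.97 ± 0.14), rad50 (1.02 ± 0.07), okr (0.88) and FANCI (0.31), which also take part in DNA repair outside meiosis, and a gene named for MutS homolog 5 (LOC105190645, 4.65 ± 0.35). FANCI was not called without the filter (0.17, adjusted p = 0.119) or in the fit of all 24 libraries (0.20, adjusted p = 0.181).

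**Figure D2:**
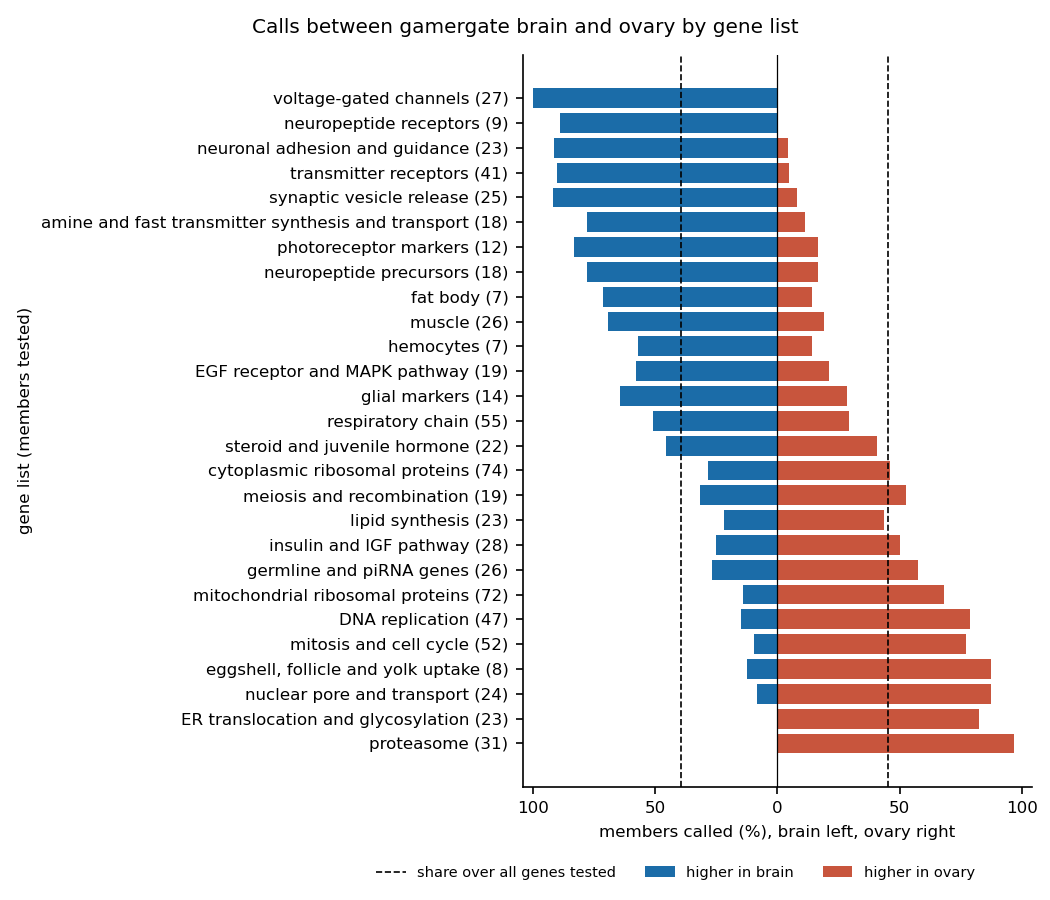
Share of tested members of each of 27 gene lists that were DEGs, in percent, drawn to the left for higher in brain and to the right for higher in ovary, with the number of members tested in parentheses. The dashed lines mark the shares over all genes tested, 39.5% for brain and 45.3% for ovary. The neuronal lists extend beyond the line on the brain side and the proteasome, nuclear pore, ER and cell division lists beyond the line on the ovary side.

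**Figure D3:**
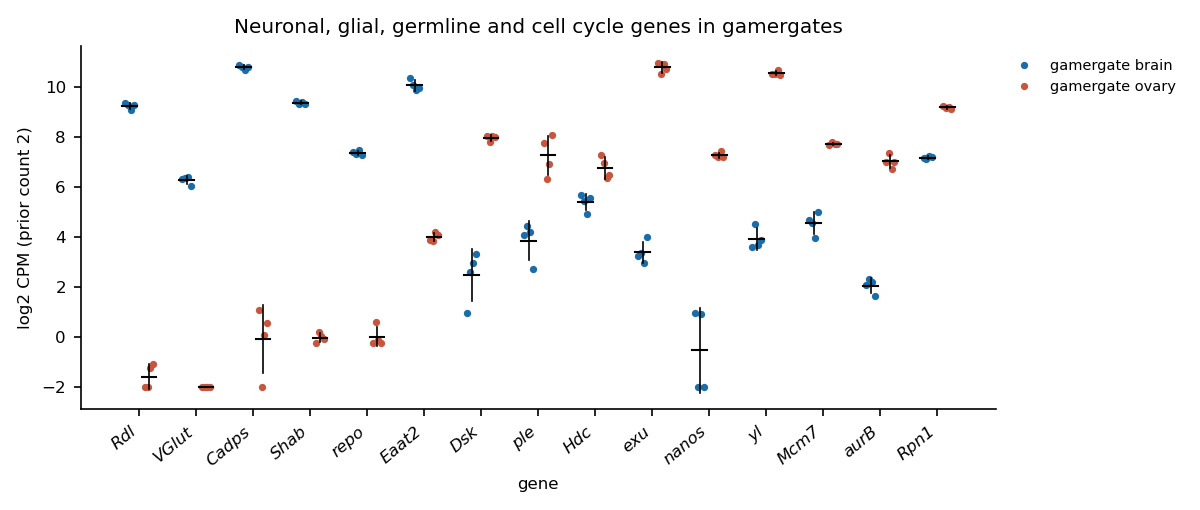
Levels of 15 genes in gamergates, as log2 CPM on the vertical axis, with the 4 brain libraries left of the 4 ovary libraries for each gene. The horizontal line is the mean and the vertical line is 1 SD, and libraries without a read lie at the lower edge. Rdl, VGlut, Cadps, Shab, repo and Eaat2 lie higher in the brain, whereas the transmitter and peptide genes Dsk, ple and Hdc lie higher in the ovary with the germline and cell cycle genes.

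Genes of ecdysteroid synthesis were higher in the ovary. Ecdysteroids, the molting hormones, are made from cholesterol by a chain of enzymes known in Drosophila as the Halloween enzymes, and all 6 that were tested were higher in the gamergate ovary. They were nvd (−3.85 ± 0.44), sro (−4.12 ± 0.17), phtm (−2.52 ± 0.33), dib (−4.90 ± 0.14), sad (−2.35 ± 0.31) and shd (−8.75 ± 0.26). The enzyme shd, which makes the active hormone, had 0, 0.586, 0.542 and 1.73 CPM in brains, against 343, 343, 302 and 264 CPM in ovaries. The enzyme dib had 5.12, 5.86, 4.88 and 8.10 CPM in brains, against 190, 160, 188 and 174 CPM in ovaries. Cyp18a1, which breaks the hormone down, was also higher in the ovary (−4.35 ± 0.44).

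The steroid and juvenile hormone list, which holds these enzymes and factors that respond to the hormone, was mixed. Enzymes and responding factors were not lists of their own and were set apart with the values known. Of the 22 genes of the steroid and juvenile hormone list that were tested, 10 were higher in the brain and 9 in the ovary. Those shares, 45.5% and 40.9%, were near the 39.5% and 45.3% of all genes. The 10 included usp, the partner of the ecdysone receptor (2.44 ± 0.15), Eip93F (2.76 ± 0.24), Hr38 (1.87 ± 0.23), E75 (1.52) and ftz-f1 (1.06). Hr3 had 167, 164, 162 and 173 CPM in brains, against 12.4, 17.7, 3.92 and 4.04 CPM in ovaries (4.26 ± 0.41, adjusted p = 8.7e-07). Only Eip74EF (−1.79 ± 0.12) and Hr39 (−1.06 ± 0.16) among the receptors and early genes of the list were higher in the ovary. For juvenile hormone, the target gene Kr-h1 (0.36) was not a DEG, and jhamt, at 5.49 CPM on average in brains and 0.582 CPM in ovaries, did not pass the filter on low counts.

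**Figure D4:**
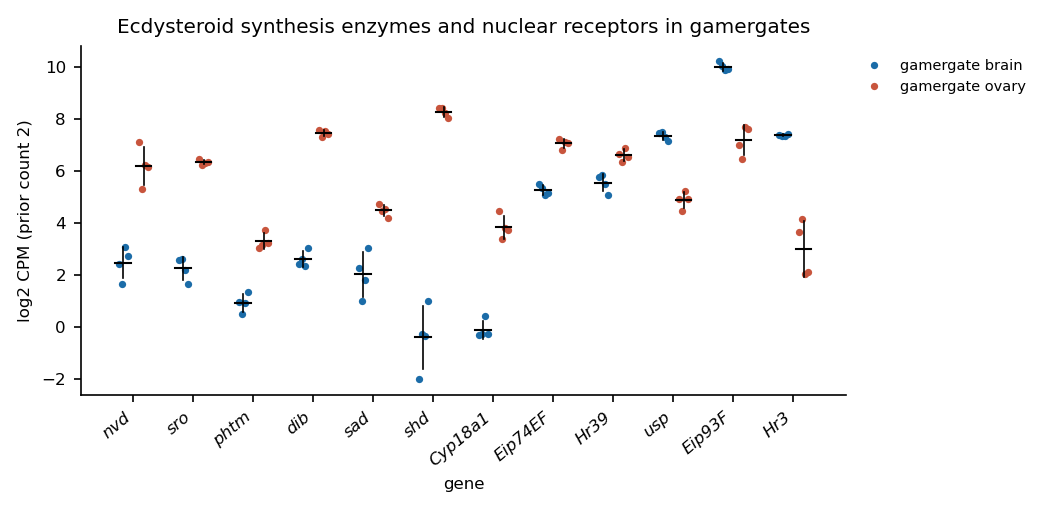
Levels of 12 ecdysteroid genes in gamergates, as log2 CPM on the vertical axis, with the 4 brain libraries left of the 4 ovary libraries for each gene, the mean as a horizontal line and 1 SD as a vertical line. The enzymes from nvd to shd and Cyp18a1, and the factors Eip74EF and Hr39, lie higher in the ovary, whereas usp, Eip93F and Hr3 lie higher in the brain.

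Genes for the handling of proteins were on the ovary side. Of 31 proteasome genes 30 were higher in the ovary and none in the brain, with a median of −1.22. At the nuclear pore 21 of 24 were higher in the ovary and 2, Nup98-96 (0.64 ± 0.10) and Mgtor (0.55 ± 0.09), in the brain. In ER translocation and glycosylation 19 of 23 were higher in the ovary and none in the brain. Rpn1, a subunit of the regulatory particle, had 142, 138, 151 and 145 CPM in brains, against 609, 562, 593 and 561 CPM in ovaries (−2.01 ± 0.08, adjusted p = 2.87e-10). Sec61alpha, the translocation channel (−1.94 ± 0.13), and the chaperone gene Gp93 of the ER (−3.50 ± 0.16) went the same way.

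Ribosomal proteins were divided. Of the mitochondrial ones 49 of 72 were higher in the ovary (68.1%, against 45.3% of all genes) and 10 in the brain (13.9%, against 39.5%). Of the cytoplasmic ones 34 of 74 were higher in the ovary and 21 in the brain, shares near or below those over all genes, and their median of −0.17 lies near that of all genes and turned to 0.05 under upper-quartile scaling. In the fit of all 24 libraries 12 of 75 were higher in the brain. Individual members spread from RpLP1 (−2.59 ± 0.28) to RpS3A (1.68 ± 0.11) and an L10a-like gene (LOC105190089, 2.18 ± 0.27). Reads of near-identical ribosomal gene copies may have been divided between them. In the respiratory chain 28 of 55 were higher in the brain (50.9%, against 39.5% of all genes) and 16 in the ovary (29.1%, against 45.3%). With a log2 difference of at least 1 required as well, 8 were higher in the brain and 8 in the ovary. Summed levels overlapped, at 4871 to 5214 CPM in brains and 4836 to 5158 CPM in ovaries. ND-75 of complex I was higher in the brain (2.49 ± 0.08), and ATPsynC, the membrane ring of ATP synthase, in the ovary (−2.95 ± 0.10).

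Lipid enzymes were split by family member. Of 43 genes in the lipid synthesis list 23 passed the filter on low counts, and of these 5 were higher in the brain and 10 in the ovary. The shares were 21.7% and 43.5%, against 39.5% and 45.3% of all genes. Without brain replicate 1, 8 of 27 were higher in the brain. FASN1, a fatty acid synthase, had 1171, 1233, 1258 and 1343 CPM in brains, against 212, 150, 288 and 257 CPM in ovaries (2.46 ± 0.17, adjusted p = 5.78e-08). The elongase gene sit had 8.53, 2.93, 15.2 and 6.94 CPM in brains, against 201, 117, 142 and 111 CPM in ovaries (−4.07 ± 0.32, adjusted p = 1.53e-07). Of the lipid genes that the study named, Scd, a desaturase, was higher in the ovary (−5.16 ± 0.68). Only 3 reads stood behind its brain level, against 950 reads over the 4 ovaries, a ratio of 0.0256 after scaling (exact 95% counting interval 0.00526 to 0.0749). Far, a fatty acyl-CoA reductase, was higher in the ovary by a small margin (−0.59 ± 0.13, adjusted p = 0.00125) and was not called in the fit of all 24 libraries (−0.70, adjusted p = 0.109). Fasn and Elovl, at 0.723 and 0.280 CPM on average in brains and 2.25 and 0.464 CPM in ovaries, did not pass the filter. The remaining study gene, Hpd-1, was higher in the brain (1.02 ± 0.13, adjusted p = 9.57e-06). Many of these genes belong to families with similar sequences, so their counts are uncertain.

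The genes that took the most reads were different in each tissue. Besides Vg and apolpp, the 8 most abundant in the brain were an uncharacterized gene (LOC105190786, with 12308, 12004, 13223 and 11451 CPM in brains, against 0.0676, 0, 0.640 and 0.686 CPM in ovaries), Tsf1, the iron carrier transferrin (7.78 ± 0.16), a second gene without a name (LOC105188516, 8.91 ± 0.18), the microtubule-associated protein futsch of axons (LOC105185081, 8.28 ± 0.15), a gene named for an extracellular matrix-binding protein (LOC105189045, 3.07 ± 0.18) and a phospholipase C (LOC105182316, 11.50 ± 0.27). In the ovary a single uncharacterized gene, LOC105181257, had 1.14, 1.76, 3.25 and 0.578 CPM in brains, against 103351, 32977, 72389 and 74763 CPM in ovaries. The next 3 were without a name as well: LOC105185703, LOC105187957 and LOC105182131.

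Among the named genes of the ovary, Idh3a, a subunit of the mitochondrial isocitrate dehydrogenase, had 78.5, 73.9, 63.5 and 74.6 CPM in brains, against 4801, 4596, 4830 and 4653 CPM in ovaries (−6.02 ± 0.13, adjusted p = 2.2e-12). The actin-5C gene (LOC105183366, −2.01 ± 0.12), EF1a-F2 (−1.24 ± 0.10) and Gp93 were also among its 8 most abundant. LOC105182131 had 1.14, 0, 1.63 and 0.578 CPM in brains, against 1489, 18630, 38.5 and 388 CPM in ovaries, a wide spread between ovaries, and limma-voom did not call it (adjusted p = 0.209). Of characterized genes with a high average level, the largest differences on the ovary side were those of a chymotrypsin (LOC105182906, 0.569, 0, 0.542 and 4.05 CPM in brains, against 2813, 2997, 1788 and 1970 CPM in ovaries), exu, a lipase 3 gene (LOC105186640, −7.11 ± 0.36) and yl.

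Detection differed between the tissues. Over 3 reads in every brain library and at most 3 in every ovary library were found for 120 genes, and the reverse for 614 genes. With all libraries thinned to 1660576 reads these became 671 and 365 genes, so the order of the tissues turned round at equal depth. The brain set held spab, VGlut, allatostatin C (LOC105182736) and orcokinin (LOC105186564).

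The last question was whether the difference between brain and ovary was particular to gamergates. It was tested as the tissue difference in gamergates minus that in workers, and likewise against revertants, so that an effect of lane common to all castes drops out. Both tests share the gamergate libraries and are not independent. Against workers, 1822 of 9674 genes (18.8%) had a higher brain minus ovary difference in gamergates and 1641 (17.0%) a lower one. Against revertants these were 1927 (19.0%) and 2352 (23.2%) of 10131. With scaling by library size only, the counts became 2556 and 1028 against workers and 3442 and 1226 against revertants. Against revertants more genes were higher than lower with DESeq2 size factors as well (2238 and 2056). This also held with any single ovary library left out, such as ovary replicate 1 of the gamergates (2031 and 1734). Against workers more were lower without brain replicate 4 of the gamergates (1555 higher and 1655 lower). The balance of the directions thus rests on the scaling and on single libraries. Total reads differed by caste too, with 1339043 to 4926716 in worker brains, 4115800 to 12917125 in revertant brains, 1863023 to 7519671 in worker ovaries and 1663266 to 7391217 in revertant ovaries. With the libraries of each test thinned to the smallest total, the counts were 1697 higher and 1143 lower against workers and 1784 higher and 1654 lower against revertants.

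IGF, ALS and Imp-L2 had a lower brain minus ovary difference in gamergates than in either other caste. For levels by caste, CPM were scaled over all 24 brain and ovary libraries. IGF averaged 1.99 ± 1.54 CPM in gamergate brains, 14.2 ± 8.49 in worker brains and 20.4 ± 12.5 in revertant brains (SD, n = 4 each). In ovaries it averaged 323 ± 35.96 in gamergates, 15.9 ± 6.42 in workers and 18.4 ± 10.4 in revertants. The brain minus ovary difference differed by −7.14 log2 units from that of workers (adjusted p = 5.6e-06) and by −7.53 from that of revertants (adjusted p = 3.45e-06). ALS differed by −4.35 and −4.41 (adjusted p = 5.42e-06 and 5.12e-07), and Imp-L2 by −3.60 and −3.61 (adjusted p = 2.8e-06 and 1.64e-06). Imp-L2 was higher in the brain than in the ovary in workers by 2.43 log2 units (adjusted p = 6.17e-05) and in revertants by 2.45 (adjusted p = 0.00011), so its direction between the tissues was reversed in gamergates. InR1 and InR2 had a higher brain minus ovary difference in gamergates, by 1.35 and 1.36 log2 units against workers and by 1.14 and 1.26 against revertants. InR1 averaged 121 ± 21.8 CPM in gamergate ovaries, against 259 ± 31.6 CPM in worker ovaries. InR2 averaged 86.0 ± 20.7 CPM in gamergate ovaries, against 257 ± 25.5 CPM in worker ovaries, and the libraries of the castes did not overlap for either gene. Ins did not pass this test against workers (0.69, adjusted p = 0.301), nor did Vg (2.41, adjusted p = 0.186), Egfr (0.29, adjusted p = 0.489), Hpd-1 (−0.53, adjusted p = 0.383) and Scd (−1.497, adjusted p = 0.482).

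The genes sit and Hdc had a high level in gamergate ovaries and a far lower one in the ovaries of the other castes. The elongase gene sit averaged 154 ± 45.7 CPM in gamergate ovaries, 0.246 ± 0.184 in worker ovaries and 0.473 ± 0.588 in revertant ovaries, and its brain minus ovary difference was lower than in workers (−10.09, adjusted p = 1.29e-07). Hdc averaged 120 ± 36.4 CPM in gamergate ovaries, 3.12 ± 5.35 in worker ovaries and 0.895 ± 0.501 in revertant ovaries, while brains averaged 42.5 ± 8.98, 42.4 ± 11.6 and 50.001 ± 11.6 CPM in gamergates, workers and revertants. Its interaction against revertants was −7.71 (adjusted p = 4.14e-08). Dh44 (−4.96 against workers), the lipase 3 gene LOC105186640 (−8.70), a ras-like growth inhibitor gene (LOC105186979, −7.10) and CSN5, a subunit of the COP9 signalosome (−2.18), were the other 4 of lowest p in this direction against workers. Against revertants they were Gycalpha99B, a subunit of the nitric oxide-sensitive guanylate cyclase (−5.40), ltl (−3.50), Had1 (−3.13) and a phospholipase-like gene (LOC105183945, −3.75). All 10 of these genes passed in the same direction in both tests (Gycalpha99B at −4.11 against workers, adjusted p = 6.73e-06, Hdc at −4.86, adjusted p = 0.000294, and sit at −8.86 against revertants, adjusted p = 1.36e-07). Without worker ovary replicate 1, ltl no longer passed against workers (−2.08, adjusted p = 0.0518). Gycalpha99B averaged 243 CPM in gamergate brains, and 30.1 ± 5.76 CPM in gamergate ovaries against 1.03 ± 0.139 in revertant ovaries.

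**Figure D5:**
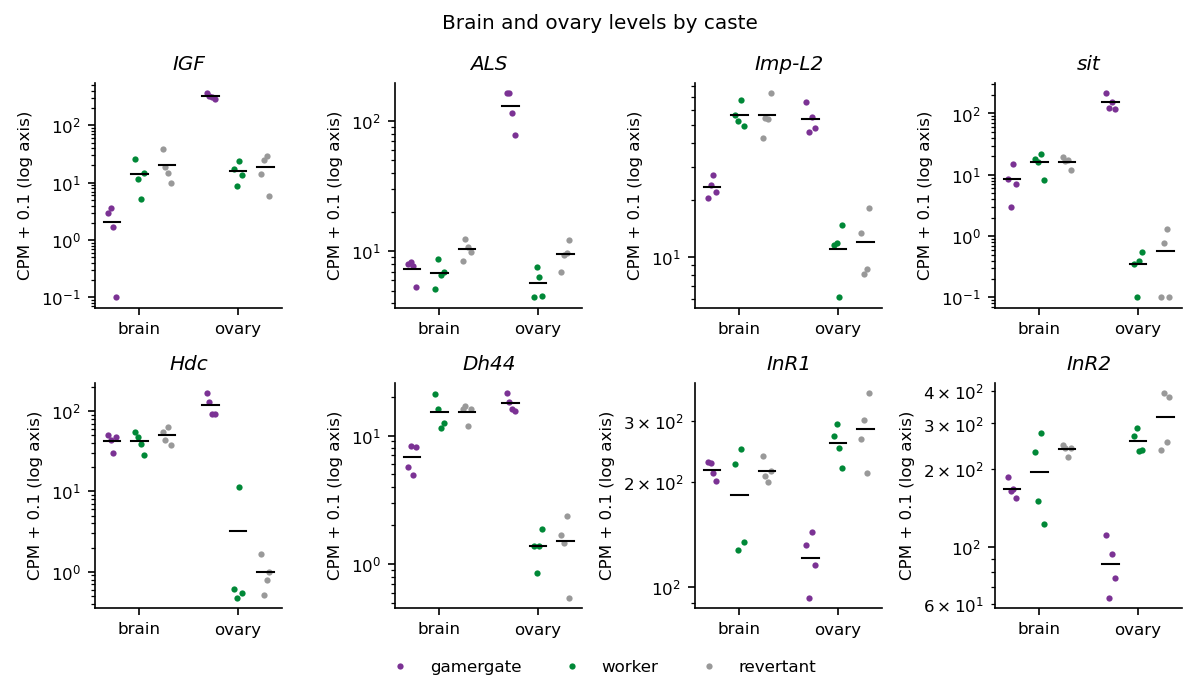
Levels of 8 genes by tissue and caste, as CPM plus 0.1 on a log axis, scaled over 24 libraries. Each point is one library, with gamergates, workers and revertants from left to right within brain and then ovary, and the horizontal line is the mean. In the ovary, gamergates lie above the other castes for IGF, ALS, Imp-L2, sit, Hdc and Dh44 and below them for InR1 and InR2.

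By list, 24 of 31 proteasome members had a lower brain minus ovary difference in gamergates than in workers and 25 of 31 than in revertants, and none had a higher one. Over all genes, 17.0% had a lower difference against workers and 23.2% against revertants. The summed proteasome level was 2146 to 2223 CPM in gamergate brains and 5465 to 5768 CPM in gamergate ovaries, against 1969 to 2500 CPM in worker brains and 2932 to 3451 CPM in worker ovaries. Muscle went the other way, with 20 of 28 members higher against workers and 18 of 28 against revertants. Its summed level was 1232 to 1704 CPM in gamergate ovaries, against 2898 to 12204 CPM in worker ovaries and 2850 to 6583 CPM in revertant ovaries. In the same direction against workers were 13 of 23 adhesion and guidance genes, 19 of 43 transmitter receptor genes, 12 of 25 synaptic vesicle genes, read against 18.8% of all genes, and the glutamate transporter gene Eaat2 (2.78, adjusted p = 1.22e-05). Eaat2 averaged 1068 CPM in gamergate brains and 16.99 CPM in gamergate ovaries, against 1015 CPM in worker brains and 110 CPM in worker ovaries. Against revertants the counts of these lists were lower, with 6 of 23 adhesion and guidance genes, 14 of 44 transmitter receptor genes and 10 of 25 synaptic vesicle genes higher, against 19.0% of all genes. In the same order, 1, 7 and 3 had a lower difference, against 23.2% of all genes. The part of muscle and nerve in the worker and revertant ovary libraries was not tested. Mical (2.07), tok (2.60), Cht7 (3.19) and Sirt1 (1.32) were the other 4 of lowest p in this direction against workers. Against revertants they were Rtf1 (1.80) and the genes LOC105181852 (1.91), LOC105182733 (1.43), LOC105183054 (2.66) and LOC105189175 (2.12), and these 10 genes too passed in both tests. The EGF ligand gene Vein was higher in both tests (3.13 against workers, adjusted p = 0.00248, and 2.02 against revertants, adjusted p = 0.00848). Far was lower in both (−1.96, adjusted p = 0.00944, and −2.50, adjusted p = 0.000214), and Crz was lower against revertants (−4.79, adjusted p = 0.0107), but did not pass against workers (−3.49, adjusted p = 0.0522). Crz no longer passed against revertants without ovary replicate 1 of the gamergates (−4.02, adjusted p = 0.0598) or with thinned libraries (−5.61, adjusted p = 0.0781). Against workers it passed with DESeq2 (−3.43, adjusted p = 0.0179) and with all 24 libraries in the fit (−3.51, adjusted p = 0.0284). Without any one of 5 libraries, brain replicates 2 and 4 and ovary replicates 2 and 4 of the gamergates and ovary replicate 1 of the workers, Crz passed against workers (adjusted p = 0.0281 to 0.0487).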

How the data were processed

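Total RNA of single ants was made into polyA-selected, strand-specific libraries and sequenced on a HiSeq 2500. The deposited values are raw counts of reads per gene and sample, one table per tissue. Per the submitters' processing notes the authors used Trimmomatic, STAR 2.5.3a and edgeR with genome version 8.5. The counting program, its strand setting and its handling of reads with several matches are not given in the sources used here. The tables were joined by gene identifier, and 0 columns were left unmatched.

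Counts were filtered by filterByExpr, scaled by TMM and tested by edgeR 4.0.16 (R 4.3.3) with the quasi-likelihood test, brain minus ovary, with Benjamini-Hochberg adjustment over all genes tested and a threshold of 0.05. The 8 gamergate libraries entered the tissue test. The caste tests used the brain and ovary libraries of gamergates with those of workers or of revertants, with an interaction term. CPM are scaled by TMM, and log2 CPM use a prior count of 2. The floor of detection is 3 reads over the 4 libraries of a tissue, and intervals and floors cover counting error only. Scripts were tested on simulated data. DESeq2 1.42.0, limma 3.58.1 (voom), other scalings, filters, thresholds, thinning, a replicate block and leaving out each library were the alternatives.

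Genes were named by rule: the study's named genes, the 8 with the highest mean CPM per tissue, the 10 characterized genes per direction with the largest difference among those without overlap and with at least 5 log2 CPM on average, up to 4 members per direction of each list with every member against its majority, and the 5 of lowest p per caste test and direction. Not all of these are printed, and list members printed for their role beside them were chosen after their values were seen. The members and lists were chosen with earlier results of these data known. Symbols come from RefSeq and from the study's gene tables, whose coverage the study chose in its caste comparison. Oligonucleotides come from the study's supplement. A search for motifs in promoters was planned and not run, since no promoter sequences were used here. Fat body libraries were not used here.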

Additional observations from a re-analysis of the deposited data

Results flagged for a closer look

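Among 97 groups of 4 libraries tested for a library far from the others (Dixon's test, 95% level), 8 had one. Chance gives about 1 in 20, but some genes were chosen with their values known, so the 8 cannot be held against that rate. Genes were tested on log2 CPM and list sums on CPM. Brain replicate 3 accounted for 5 of the 8. It had the lowest Arr2 (32.01 CPM), Lop2 (42.9 CPM) and summed photoreceptor markers (798 CPM) and the highest Mhc (567 CPM) and summed muscle markers (4900 CPM). These 5 are not independent, since the sums cover the same cell types as the single genes. The others were Vein in brain replicate 2 (30.5 CPM), Egfr in brain replicate 1 (31.3 CPM) and repo in ovary replicate 2 (1.25 CPM).

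The tissue difference of gamergates differed from that of another caste, by the interaction test, for the following named genes. All values are log2 units of brain minus ovary, gamergates minus the other caste, and the workers and revertants are compared with the same gamergate libraries. Against both castes it was lower for IGF (−7.14 against workers, −7.53 against revertants), ALS (−4.35 and −4.41 in the same order), Imp-L2 (−3.60 and −3.61) and Far (−1.96 and −2.50), and higher for Vein (3.13 and 2.02), InR1 (1.35 and 1.14) and InR2 (1.36 and 1.26). The next 20 genes, named for a low p in one of the tests, passed in both as well. In the same order, the difference was lower for sit (−10.09 and −8.86), LOC105186640 (−8.70 and −6.36), LOC105186979 (−7.10 and −5.96), Dh44 (−4.96 and −4.82), Hdc (−4.86 and −7.71), Gycalpha99B (−4.11 and −5.40), Had1 (−2.57 and −3.13), LOC105183945 (−2.48 and −3.75), ltl (−2.31 and −3.50) and CSN5 (−2.18 and −2.12). It was higher for Cht7 (3.19 and 2.01), Eaat2 (2.78 and 2.98), tok (2.60 and 1.92), Mical (2.07 and 2.48), LOC105183054 (1.88 and 2.66), LOC105189175 (1.63 and 2.12), LOC105181852 (1.55 and 1.91), Rtf1 (1.497 and 1.80), Sirt1 (1.32 and 1.18) and LOC105182733 (1.24 and 1.43). Crz was lower against revertants (−4.79) and did not pass against workers (−3.49, adjusted p = 0.0522).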

How the results depend on the processing

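The counts of DEGs between brain and ovary stayed within 1.5 times of 3698 and 4246 under other scalings, filters and tools and with each library left out, where they ranged from 3527 to 3737 for the brain and from 3985 to 4303 for the ovary. Upper-quartile scaling turned the order of the tissues, with 4146 higher in the brain and 3718 in the ovary. With a log2 difference of at least 1 required as well, 2700 were higher in the ovary, and a test against a log2 difference of 1 left 2298 for the brain and 2225 for the ovary. Leaving out each library, the caste test gave 1555 to 2170 higher and 1428 to 2264 lower against workers, and 1703 to 2455 higher and 1734 to 2227 lower against revertants. The 2352 lower genes of the main fit against revertants lay above that last range. With library size as the only scaling, 1028 were lower against workers, and 3442 were higher and 1226 lower against revertants. Genes detected in the brain only numbered 37, 187 and 671 with at least 1 read, at least 10 reads and thinned libraries, and those in the ovary only 301 and 365 with at least 1 read and thinned libraries. Upper-quartile scaling turned the median of the cytoplasmic ribosomal proteins to 0.0511 and the kainate receptor gene LOC105191208 to 0.0373. The cause of these changes was not tested.

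The replicate numbers were not shown to pair brain with ovary. In their deviations from the tissue means, same-numbered libraries correlated at 0.0764, 0.0400, 0.0501 and 0.0665, all positive but small. Other pairs correlated at −0.159 to 0.0996. Brain replicates 1 and 3 correlated best with the ovary of their own number. Brain replicates 2 and 4 did so with ovary replicates 3 and 1 (0.0996 and 0.0858). With the number as a replicate block, 3706 genes were higher in the brain and 4236 in the ovary, and the caste tests gave 1664 higher and 1581 lower against workers and 1671 higher and 2257 lower against revertants. Depth limits the low end: 3 reads in a brain library were worth 1.63 to 1.76 CPM, so brain levels near or under this rest on few reads.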
